A study of Homo sapiens with 4 samples.

Results

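The calsyntenins (CLSTN1, CLSTN2, CLSTN3), the X11 adaptors (APBA1, APBA2, APBA3), the amyloid precursor protein genes APP and APLP2, and the FE65 adaptors (APBB1, APBB2) were described in RNA sequencing of Caki-1 cells with and without TFE3 knockdown. These 10 genes were taken by symbol from a count table of 61533 Ensembl identifiers, and all 10 had counts high enough to be tested. The set was chosen by symbol with the counts and fold changes of the same knockdown comparison in view. Differences between the groups are therefore given for the members as a description, with their errors and without p-values. Whether a member passed a threshold is also stated, as a description only, and nothing is read from it.

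In one group the cells had been infected with lentivirus for a short hairpin RNA to TFE3 (shTFE3, genotype TFE3-KD), and in the other with a control hairpin (shControl, genotype WT), with 2 libraries per group. Caki-1 is an established human renal cell carcinoma line. All cells were grown in McCoy's 5A medium with serum, replated 24 hours after infection, given puromycin at 1 µg/ml 12 hours later and harvested after 3 days of selection, so each library comes from a selected pool of infected cells. Neither the number of hairpins nor whether the replicates were separate infections is given in the labels, so any p-value is measured against a spread between libraries that may be technical.

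Calsyntenins are transmembrane proteins of the cadherin superfamily, known from neurons, where calsyntenin-1 links vesicles to the motor kinesin-1. APP is a transmembrane protein that secretases cut, and amyloid-beta is released when beta- and then gamma-secretase cut it. X11 adaptors (also called Mint proteins) bind the cytosolic tails of both APP and calsyntenins, in part through a phosphotyrosine-binding domain, while FE65 adaptors bind the APP tail. TFE3 belongs to the MiT/TFE transcription factors, which drive lysosomal genes from E-box sites.

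The libraries held between 17270180 and 17742519 counts. TFE3 itself stood at 70.1 and 66.9 CPM (counts scaled to a common library size) in the shTFE3 libraries, against 131 and 128 CPM in the shControl libraries. It fell to 52.9% of the control level, a log2 fold change of -0.92 (SE 0.062, edgeR quasi-likelihood test, Benjamini-Hochberg adjusted p 5.6e-11). Of 11 markers of renal epithelium or renal carcinoma, 6 had at least 100 counts in every library, PAX8 among them, while PAX2, CA9 and LRP2 had none. The summed level of the 10 neuron markers was 67.6 and 59.1 CPM in shTFE3 and 67.6 and 72.6 CPM in shControl, with STMN2 at 0. Most of this sum came from SYT1 (mean 34.3 CPM in shTFE3 and 38.4 in shControl) and MAP2 (18.5 in shTFE3 and 17.8 in shControl). These were the 2 neuron markers with at least 100 counts in every library. The 9 markers of leukocytes, endothelium and fibroblasts summed to between 10.6 and 10.7 CPM in shTFE3 and between 11.3 and 11.7 CPM in shControl, with CDH5 and LUM at 0. Of the last list only PECAM1 and COL1A1 had counts high enough to be tested, and neither passed in edgeR. In the same fit 1 neuron marker (SNAP25) and 2 renal markers (KRT18 and CDH6) were lower in shTFE3. The part of these markers in the results was not tested.

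CLSTN2 and APBA1 were far lower in the knockdown, and the other 8 members differed little. CLSTN2 was at 25.8% and APBA1 at 28.3% of the control level, while the other 8 had log2 fold changes from -0.27 (CLSTN3) to 0.13 (APBB1). In edgeR's fit over 15950 genes, 5 members passed an adjusted p of 0.05 with lower levels (CLSTN2, APBA1, CLSTN3, APLP2 and APP) and 0 with higher levels, while 5 did not pass. The same rule called 23.3% of all tested genes, 12.9% as lower and 10.3% as higher. No member was higher at an unadjusted p under 0.05 either, in edgeR or in DESeq2, which called the same number of members. Nothing is read from these counts, because the comparison itself was used to propose the members. The median log2 fold change was -0.14 over the 10 members and 0.0015 over all tested genes.

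With any 1 library left out, the log2 fold change lay between -0.34 and -0.199 for CLSTN3. It lay between -0.192 and -0.132 for APP and between -0.22 and -0.212 for APLP2. The calls of CLSTN3, APP and APLP2 did not hold in every such fit. In CPM, 7 members had both shTFE3 libraries below both shControl libraries, and 2 had them above. Over all tested genes these shares were 30.5% and 29.8%. CLSTN1 was the member whose libraries overlapped. In bulk RNA, fewer cells that express a gene and less RNA per cell cannot be told apart.

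**Figure D1:**
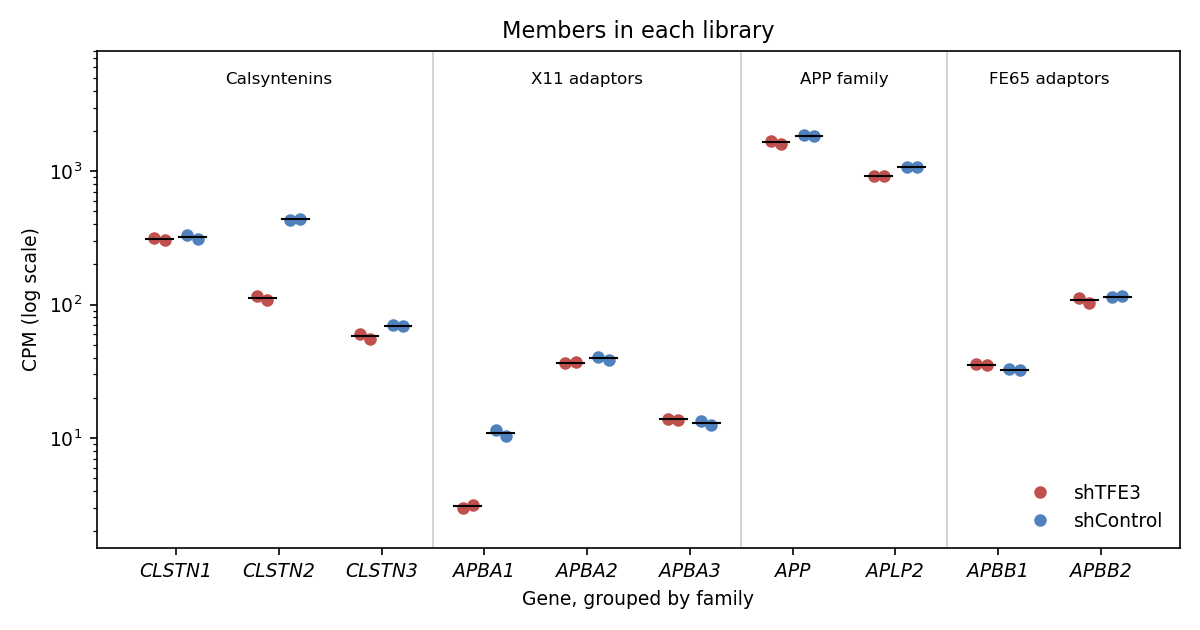
Level of each member in CPM on a log axis (y) by gene and family (x), with shTFE3 libraries in red, shControl libraries in blue, 1 point per library and a black line at the mean of each group of 2. CLSTN2 (117 and 109 CPM in shTFE3, 434 and 440 in shControl) and APBA1 (3.01 and 3.15 in shTFE3, 11.5 and 10.3 in shControl) show clear gaps between the groups.

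CLSTN2, the calsyntenin known in mouse for a role at inhibitory synapses, carried the largest difference of the set. It had 2095 and 1936 counts in the shTFE3 libraries, against 7398 and 7495 counts in the shControl libraries. This corresponds to 113 ± 5.49 CPM in shTFE3 and 437 ± 4.42 CPM in shControl (SD, n = 2 each). Its log2 fold change was -1.95 (SE 0.058), and lay between -2.004 and -1.907 with any 1 library left out. Ordered by log2 fold change from the most negative, CLSTN2 was number 20 of the 15950 tested genes. The gene (ENSG00000158258) spans 139935185 to 140577397 on the plus strand of chromosome 3 (GRCh38, GENCODE release 29), and the antisense genes annotated within it share none of its exon bases.

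CLSTN1, the kinesin-1 cargo adaptor of the family (ENSG00000171603, minus strand of chromosome 1, 9729026 to 9824526), lay at nearly the same level in both groups. It had 318 and 304 CPM in shTFE3, against 331 and 311 CPM in shControl. The groups overlapped, and the log2 fold change was -0.045 (SE 0.056), smaller than its error. With any 1 library left out it lay between -0.092 and 0. PIK3CD, a gene on the opposite strand, shares 1.57% of its exon bases.

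CLSTN3, a calsyntenin known to bind neurexins at synapses (ENSG00000139182, plus strand of chromosome 12, 7129698 to 7158945), was somewhat lower in the knockdown. It stood at 60.6 and 54.9 CPM in shTFE3, against 70.4 and 68.6 CPM in shControl, and the groups did not overlap. The log2 fold change was -0.27 (SE 0.070), and it was -0.20 without shTFE3 replicate 2 and -0.25 without shControl replicate 1, where it did not pass. An antisense gene, AC018653.3, shares 4.36% of its exon bases and had 81 and 71 counts in shTFE3, against 48 and 57 in shControl. The strand setting of the counting is not given in the sources used here, so reads of the pair cannot be told apart there.

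The promoters of CLSTN2 and CLSTN3 are shown because the calsyntenin with the large difference and one with a small difference share a motif there. The windows are from RefSeq, 250 bases before to 50 bases after the gene start, at chr3:139934935-139935234 and chr12:7130121-7130420 of GRCh38.p14, both on the plus strand and written 5′ to 3′. Capitals mark TGACGTCA, the cyclic AMP response element (CRE).
CLSTN2: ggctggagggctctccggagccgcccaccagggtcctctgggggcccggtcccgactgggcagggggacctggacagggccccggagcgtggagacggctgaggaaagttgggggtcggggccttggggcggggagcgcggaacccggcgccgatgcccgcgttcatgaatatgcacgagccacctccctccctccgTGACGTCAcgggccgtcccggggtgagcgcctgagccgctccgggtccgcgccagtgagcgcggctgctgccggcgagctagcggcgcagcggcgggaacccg
CLSTN3: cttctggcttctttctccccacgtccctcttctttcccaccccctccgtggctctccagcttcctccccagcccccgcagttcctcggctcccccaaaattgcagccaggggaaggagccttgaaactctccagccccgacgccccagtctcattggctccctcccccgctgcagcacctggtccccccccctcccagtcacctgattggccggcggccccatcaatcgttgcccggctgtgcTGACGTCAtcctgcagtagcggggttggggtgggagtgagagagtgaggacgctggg

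The motif starts at position -53 in CLSTN2 and at -7 in CLSTN3, counted from the RefSeq gene start. For CLSTN2 this is also the GENCODE start, while the whole CLSTN3 window lies inside the gene as GENCODE gives it. The motif was added to the search after the promoters had been read, and 1.98% of 27305 promoters (1 window per gene) hold it. No window of CLSTN1, or of any other member with a promoter entry, held it. The E-box letters CACGTG, which MiT/TFE factors are known to bind, were in none of the 20 windows of the 9 members matched in the RefSeq table; APBA1 was not matched, so its promoter was not analysed here. CACGTG is in 7.26% of all windows of all genes, and in 7.43% of promoters with 1 window per gene. The M-box core CATGTG, searched on both strands, was in 1 of the windows of APBA2 and 1 of those of APBB1, in neither gene the first window. CATGTG is in 11.1% of all windows of all genes, and in 11.2% of promoters with 1 window per gene. CACGTG and TGACGTCA read the same on both strands, and no match overlapped another. These are matches of letters in short windows only.

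Among the X11 adaptors, APBA1 was much lower in the knockdown and the other pair were close to the control level. APBA1 encodes X11-alpha, a mostly neuronal adaptor that forms a complex with CASK and LIN7 proteins. It had 54 and 56 counts in shTFE3, against 196 and 175 counts in shControl. These are 3.08 ± 0.101 CPM in shTFE3 and 10.9 ± 0.861 CPM in shControl (SD, n = 2 each), with no overlap. Its log2 fold change was -1.82, with an SE of 0.157 that is more than that of CLSTN2 at 0.058, and lay between -1.90 and -1.74 with any 1 library left out. It ranked number 28 of the 15950 genes by log2 fold change, so 0.176% of them were at or below its value, CLSTN2 among them. The gene (ENSG00000107282) spans 69427530 to 69672306 on the minus strand of chromosome 9, and the gene AL355140.1, which shares 3.50% of its exon bases on the same strand, had 0 counts in every library.

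APBA2, the X11-beta adaptor, lies on the plus strand of chromosome 15 (ENSG00000034053, 28884483 to 29118315). It had 36.5 and 37.0 CPM in shTFE3, against 40.6 and 38.6 CPM in shControl. Both knockdown libraries lay below both control libraries, but the log2 fold change of -0.11 (SE 0.077) did not pass. APBA3, the X11-gamma adaptor found in most tissues, lies on the minus strand of chromosome 19 (ENSG00000011132, 3750819 to 3761699). It had 13.9 and 13.7 CPM in shTFE3, against 13.5 and 12.4 CPM in shControl. The log2 fold change was 0.086 (SE 0.110), less than its error, and did not pass. With any 1 library left out, it lay between -0.15 and -0.074 for APBA2 and between 0.027 and 0.14 for APBA3, so each kept its sign.

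**Figure D2:**
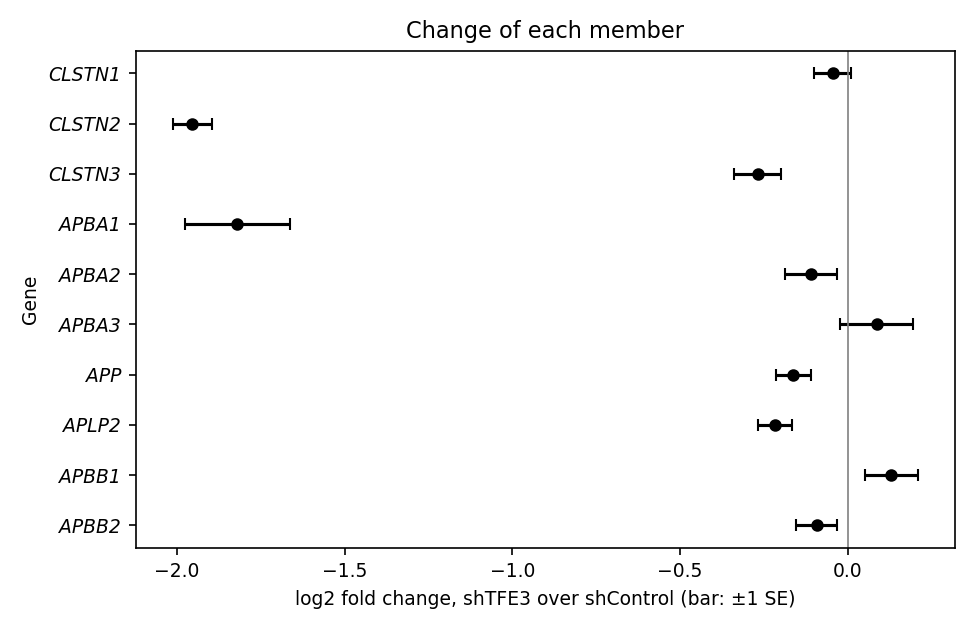
Log2 fold change of each member, shTFE3 over shControl (x, points), with bars of 1 SE from the edgeR fit, by gene (y). CLSTN2 at -1.95 and APBA1 at -1.82 lie far left of the other 8, which lie between -0.27 and 0.13.

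APP and APLP2, the transmembrane precursor proteins whose tails these adaptors bind, were slightly lower in the knockdown. APP (ENSG00000142192) lies on the minus strand of chromosome 21, 25880550 to 26171128, and APLP2 (ENSG00000084234) on the plus strand of chromosome 11, 130068147 to 130144811. APP was the most abundant member, at 1685 and 1612 CPM in shTFE3, against 1867 and 1822 CPM in shControl. Its log2 fold change was -0.16 (SE 0.052), and it did not pass without shTFE3 replicate 2 (-0.13), without either shControl replicate (-0.15 and -0.18) or with no normalization factors (-0.12). APLP2, the paralog of APP that lacks the amyloid-beta sequence, had 923 and 917 CPM in shTFE3, against 1069 and 1068 CPM in shControl. Its log2 fold change was -0.22 (SE 0.051), and it did not pass without shTFE3 replicate 2 (-0.21) or without either shControl replicate (-0.22 each). The APLP2 libraries were the closest pairs of the set, 0.718% apart in shTFE3 and 0.0936% in shControl, where the APP libraries were 4.43% apart in shTFE3 and 2.44% in shControl. The groups did not overlap for either gene, and the levels were 89.4% (APP) and 86.1% (APLP2) of the control.

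The FE65 adaptors, which link the APP tail to nuclear partners such as the acetyltransferase KAT5, were near the control level. APBB1 (ENSG00000166313) lies on the minus strand of chromosome 11, 6395124 to 6419414, and APBB2 (ENSG00000163697) on the minus strand of chromosome 4, 40810027 to 41216714. APBB1 (FE65) had 35.7 and 35.1 CPM in shTFE3, against 32.7 and 32.1 CPM in shControl, a log2 fold change of 0.13 (SE 0.079) that did not pass. Both knockdown libraries lay above both control libraries. APBB2 (FE65-like 1) had 111 and 104 CPM in shTFE3, against 114 and 115 CPM in shControl. Its log2 fold change was -0.092 (SE 0.061) and did not pass, although the groups did not overlap. With any 1 library left out the values lay between 0.11 and 0.14 for APBB1 and between -0.14 and -0.042 for APBB2, and neither passed.

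Per length, the order of the members differed between the groups in the place of CLSTN2. Levels were expressed as CPM per kilobase of all annotated exon bases, which understates genes whose cells use a short transcript. APP led with 261 ± 8.13 CPM per kb in shTFE3 and 292 ± 4.95 in shControl, followed by APLP2 at 123 ± 0.636 in shTFE3 and 143 ± 0.0707 in shControl, and by CLSTN1 at 54.8 ± 1.74 in shTFE3 and 56.5 ± 2.54 in shControl (SD, n = 2 each). CLSTN2 was number 6 in shTFE3, at 7.72 ± 0.376 CPM per kb, and number 4 in shControl, at 29.9 ± 0.304. By the group means it lay, in shTFE3, below CLSTN3 (8.36 ± 0.588) and APBB2 (8.30 ± 0.424), and in shControl above CLSTN3 (10.1 ± 0.182) and APBB2 (8.85 ± 0.0622). APBB1, APBA2, APBA3 and APBA1 closed the order in both groups, with APBA1 at 0.270 ± 0.00884 CPM per kb in shTFE3 and 0.956 ± 0.0754 in shControl. Neighbours in the order were apart in their libraries, except CLSTN3 and APBB2 in shTFE3, which overlapped. CLSTN2 and CLSTN3 also overlapped in shTFE3, and the highest CLSTN2 library there (7.987 CPM per kb) almost reached the lowest of APBB2.

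The shares of the calsyntenins and of the X11 adaptors within their families were taken from the same levels per length. CLSTN2 made up 10.98% and 10.81% of the calsyntenin level in the shTFE3 libraries, against 30.3% and 31.8% in the shControl libraries. CLSTN1 made up 77.0% and 77.7% in shTFE3, against 59.4% and 57.7% in shControl, with its own level nearly the same. APBA1 was the smallest X11 share in both groups, at 3.27% and 3.41% in shTFE3 and 10.8% and 10.3% in shControl. Summed over the family, the calsyntenins were at 73.4% of the control level, the X11 adaptors at 89.4%, APP and APLP2 together at 88.3% and the FE65 adaptors at 100.2%.

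**Figure D3:**
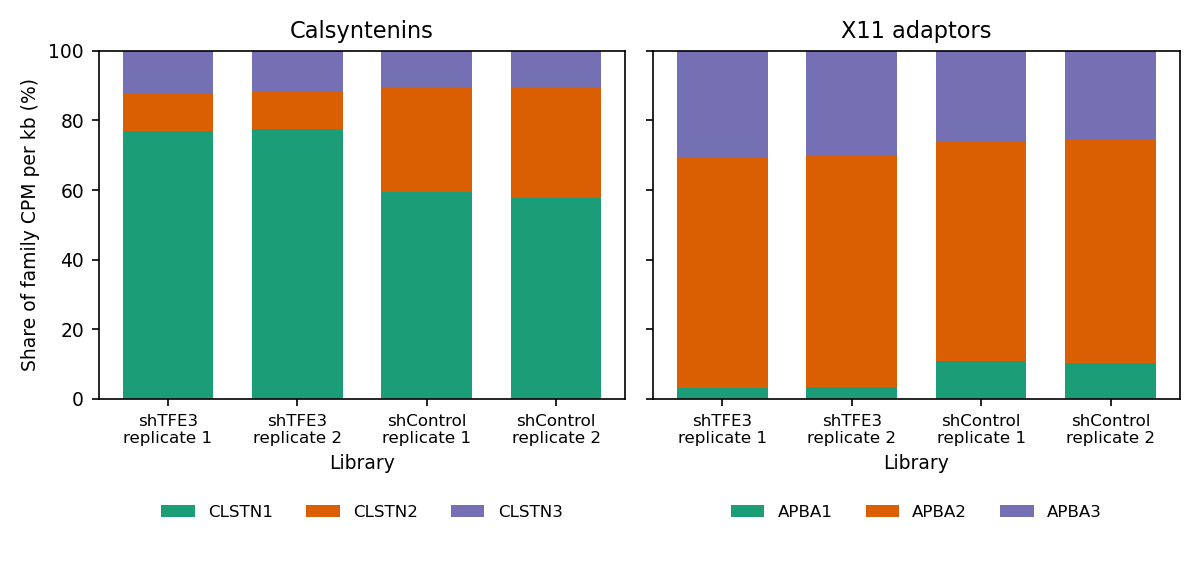
Share of each gene in the summed CPM per kb of its family (y, percent) in each library (x), for the calsyntenins on the left and the X11 adaptors on the right; bars are stacked to the whole family. CLSTN2 takes 10.98% and 10.81% in the shTFE3 libraries, against 30.3% and 31.8% in the shControl libraries.

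In the authors' deposited table of 546 changed genes (394 lower and 152 higher), CLSTN2 and APBA1 were the 2 members listed. That table gives CLSTN2 a log2 fold change of -1.95 (SE 0.0653) and APBA1 one of -1.82 (SE 0.251). No gene in the authors' deposited table had an absolute log2 fold change below 0.585, a size that the other 8 members did not reach in the edgeR fit.

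The genes with the pattern most like CLSTN2 and APBA1 were taken by the smallest Euclidean distance over the 4 libraries between log2 CPM values centred on each gene's mean, over the 10904 tested genes that averaged 100 or more counts. For CLSTN2 they were the tight-junction gene CLDN2 (distance 0.101), the long noncoding RNA LINC02532 (0.129) and the cold-responsive cation channel TRPM8 (0.159). CLDN2 had 8.07 and 8.21 CPM in shTFE3, against 31.0 and 30.8 CPM in shControl. For APBA1 they were ENPP5 (0.109), CLDN2 again (0.167) and the potassium channel KCNH1 (0.227). CLSTN2 and APBA1 themselves lay 0.243 apart. With 2 groups of 2 libraries, this measure largely picks genes with a fold change of like size.

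A set of 69 genes that work with these families was taken as 7 lists, of which 63 could be tested. Of these, 14 rose, 13 fell and 36 did not pass (edgeR adjusted p under 0.05); their median log2 fold change was 0.036. The genes that passed were 42.9% of those tested, against 23.3% of all tested genes (10.3% higher and 12.9% lower), and nothing particular to the lists is read from this, since they were drawn up with earlier results known. The call held in all 4 fits with 1 library left out for 9 of the 27 called genes: ADAM9, BACE2, DAB2, KLC2, SORL1, BIN1, CLU, APOE and ABCA1. The relatives outside the members, APLP1 and APBB3, had log2 fold changes of 0.34 (SE 0.178) and 0.28 (SE 0.116) and did not pass in edgeR or DESeq2. At an unadjusted p under 0.05, 1 of this pair was higher in edgeR and 0 in DESeq2.

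Genes of kinesin-1 cargo docking, the machinery that calsyntenin-1 and APP vesicles are known to use, were mostly higher: of 7 tested, 6 rose and 0 fell, with a median of 0.24. The share that passed was 85.7%, against 23.3% of all tested genes (10.3% higher and 12.9% lower). The light chain KLC2 had 45.6 and 48.8 CPM in shTFE3, against 31.8 and 31.0 CPM in shControl (log2 fold change 0.59, SE 0.078, edgeR adjusted p 3.23e-06), and the heavy chain KIF5C had 51 and 50 counts in shTFE3, against 19 and 23 counts in shControl (log2 fold change 1.19, SE 0.255, edgeR adjusted p 0.00107). KIF5C did not pass in DESeq2 or without shTFE3 replicate 1 (1.19) or 2 (1.20). DESeq2 called 3 of the list; edgeR called 1 without either shTFE3 replicate, 2 without shControl replicate 1 and 3 without shControl replicate 2. No gene of the list fell at an unadjusted p under 0.05 in edgeR or DESeq2.

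Of 11 tested secretase genes, 4 fell and 0 rose, with a median of 0.003 (at an unadjusted p under 0.05, 1 was higher in edgeR and 0 in DESeq2). The secretase genes that passed were 36.4% of those tested, against 23.3% of all tested genes (12.9% lower). The proteases BACE2 and ADAM9 fell by 0.49 (edgeR adjusted p 1.18e-06) and 0.43 (edgeR adjusted p 2.62e-06), and the gamma-secretase subunit APH1A by 0.29 (edgeR adjusted p 0.000702). When shTFE3 replicate 1 was left out 2 secretase genes passed (BACE2 and ADAM9), and 3 in each of the other 3 such fits.

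Of 16 tested genes of APP sorting, 4 rose and 4 fell, with a median of 0.040. Over all tested genes, 23.3% passed by the same threshold, 10.3% as higher and 12.9% as lower. BIN1, a membrane-shaping endocytic protein, rose by 0.61 (edgeR adjusted p 2.06e-08), the sorting receptors SORL1 and SORT1 fell by 0.56 (edgeR adjusted p 1.83e-05) and 0.53 (edgeR adjusted p 5.56e-05), and the clathrin adaptor PICALM fell by 0.25 (edgeR adjusted p 0.00197). Of the sorting genes, 3 passed when shTFE3 replicate 1 was left out, 2 when shTFE3 replicate 2 was, 7 when shControl replicate 1 was and 3 when shControl replicate 2 was. Among the fits with 1 library left out, SORT1 did not pass without shTFE3 replicate 2 (-0.48). PICALM passed in these fits only without shControl replicate 1 (-0.30).

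Of 8 tested genes of amyloid-beta clearance, 2 rose and 2 fell, with a median of 0.022. An edgeR adjusted p under 0.05 was reached by 23.3% of all tested genes (10.3% higher and 12.9% lower). The lipid carrier APOE fell by 2.22 (SE 0.345, edgeR adjusted p 2.87e-05) from at most 37 counts per library, the lipid exporter ABCA1 rose by 0.41 (edgeR adjusted p 5.82e-06) and the secreted chaperone CLU rose by 0.28 (edgeR adjusted p 0.000417). The peptidase MME fell by 0.72 (edgeR adjusted p 0.0249) but did not pass with any 1 of the libraries left out (-0.88 to -0.59).

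Of 11 tested adaptors of the APP tail outside the members, 1 rose and 2 fell, with a median of 0.092, and the 27.3% that passed lay near the 23.3% of all tested genes. The endocytic adaptor DAB2 fell by 0.53 (edgeR adjusted p 4.07e-07) and APPBP2 by 0.22 (edgeR adjusted p 0.0098), while GRB2 rose by 0.16 (edgeR adjusted p 0.0345). When shControl replicate 1 was left out 2 of these adaptors passed, APPBP2 among them, and 1 (DAB2) in each of the other 3 such fits.

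Among 8 tested partners of X11 adaptors and calsyntenins, 1 rose and 1 fell, with a median of 0.027, and the 25.0% that passed lay near the 23.3% of all tested genes. CASK, the scaffold that binds X11-alpha, rose by 0.16 (edgeR adjusted p 0.0489), and the neurexin NRXN3 fell by 0.71 (edgeR adjusted p 0.00267). When either shTFE3 library was left out 0 partners passed, and 1 (NRXN3) when either shControl library was. DESeq2 called 0 of these partners, with 1 higher and 1 lower at an unadjusted p under 0.05.

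**Figure D4:**
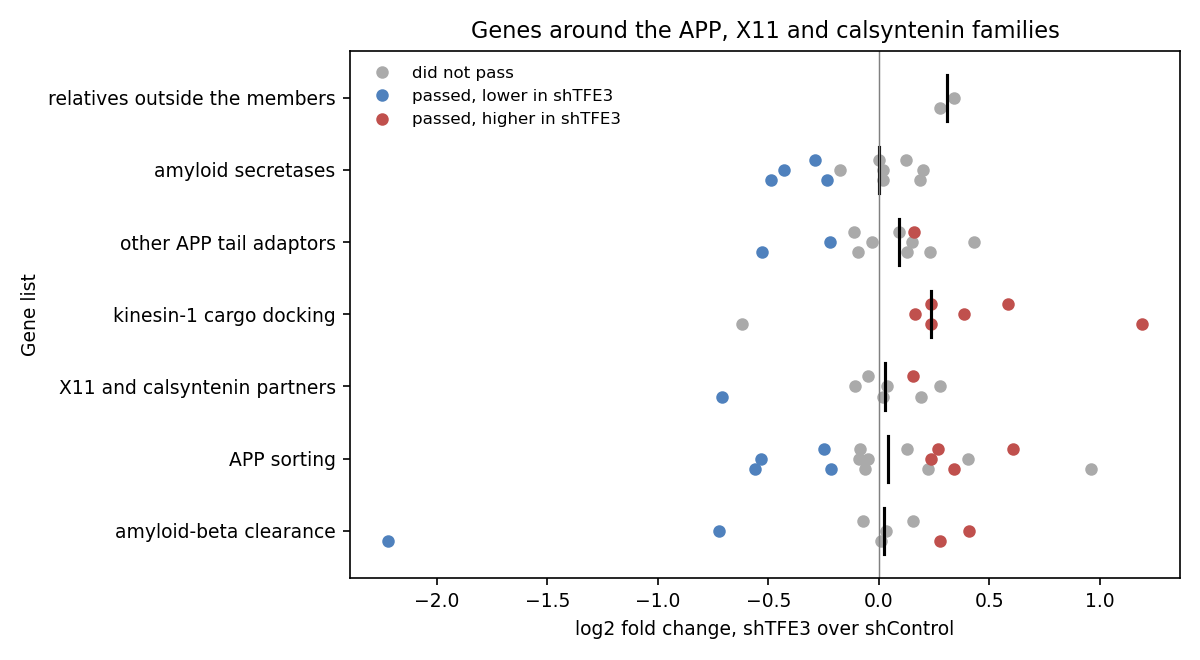
Log2 fold change, shTFE3 over shControl (x), of each tested gene of the 7 lists (y); red points passed with higher and blue points with lower levels in shTFE3 at an edgeR adjusted p of 0.05, grey points did not pass, and black lines are list medians. The kinesin-1 list has 6 red points of 7, and the secretase list has 4 blue points of 11 and a median of 0.003. Of all tested genes, 10.3% passed as higher and 12.9% as lower.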

How the data were processed

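Polyadenylated RNA of 4 Caki-1 libraries was sequenced as paired reads. The authors deposited a table of raw counts by Ensembl identifier. The tools named in the submitters' processing notes are STAR, featureCounts, Trim Galore and DESeq2, with build hg38; versions, annotation and strand setting were not given in the sources used here. A further deposited table holds the authors' log2 fold changes, standard errors, mean normalized signal, test score, and p-values of selected genes.

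Symbols came from a gene name table (61415 identifiers matched), positions and exon lengths from GENCODE release 29, promoters from RefSeq (GRCh38.p14). Counts were tested with edgeR 4.0.16 in R 4.3.3 (TMM, filterByExpr, group as the only term, quasi-likelihood test, Benjamini-Hochberg adjustment over 15950 genes holding 99.8% of counts). Replicates had a fitted coefficient of variation of 4.16%, and the chi-square of replicate counts over its degrees of freedom was 3.63 in shTFE3 and 2.14 in shControl, above sampling noise. CPM use TMM factors. SE is the absolute log2 fold change over the square root of the test statistic.

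Members and lists were chosen with earlier results of these data known. The text names all members, TFE3, up to 4 called genes per list by smallest p (some are not reported here), and the 3 genes nearest in pattern to CLSTN2 and to APBA1; any other named gene was picked with its value in view. The alternatives tried were other normalizations and filters, DESeq2 1.42.0, a replicate term and each library left out.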

Additional observations from a re-analysis of the deposited data

How the results depend on the processing

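Over RLE factors, no factors, no filter, at least 50 counts in 2 libraries, DESeq2, the replicate block and each library left out, the log2 fold change lay between -2.004 and -1.907 for CLSTN2 and between -1.901 and -1.739 for APBA1; since members were chosen on this comparison, this describes the values only. No called value reversed. With no filter on low counts, 384 genes passed in place of 3709, with 2 members, 1 secretase, 1 tail adaptor, 0 kinesin-1 genes (6 higher at an unadjusted p under 0.05), 0 X11 and calsyntenin partners (2 higher and 1 lower), 1 sorting gene and 1 clearance gene; that fit tested 31954 genes and its prior degrees of freedom fell to 2.09. DESeq2 called 1947 genes, with 3 kinesin-1 genes and 0 partners. Without normalization factors 2119 genes were higher and 1680 lower, against 1650 higher and 2059 lower with TMM. With 1 library left out, the lone library of a group is assumed to vary like the others; genes called then numbered 1043 to 2514, members 2 to 5, secretases 2 to 3, tail adaptors 1 to 2, kinesin-1 genes 1 to 3, partners 0 to 1, sorting genes 2 to 7, and clearance genes 3 each time, and TFE3 lay between -0.95 and -0.89. The cause of these shifts was not tested. With the replicate number as a block, 3558 genes, 5 members and 1 partner passed, and GRB2, KIF5B and CASK did not; same-numbered libraries share only a number (correlation of their deviations -0.0957 over 10914 genes). At 17270180 counts or more per library, low counts limit the precision of APBA1 (SE 0.157) and APOE (SE 0.345).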

Other observations

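The neighbours of CLSTN2 and APBA1 on their chromosomes were looked at as values, taking close protein-coding genes on each side in GENCODE release 29. Before and after here mean lower and higher chromosome positions. APBA1 is on the minus strand, so a gene after it lies on the side of its start. NMNAT3, an enzyme of NAD synthesis whose gene lies 257 kb before CLSTN2, had 98 and 92 counts in shTFE3, against 193 and 191 counts in shControl, which gave a fold change of -1.08 on the log2 scale (SE 0.136, edgeR adjusted p 1.53e-06). SLC25A36, a mitochondrial carrier gene 364 kb after CLSTN2, had 2231 and 1912 counts in shTFE3, against 2008 and 2144 in shControl, with overlapping groups (log2 fold change -0.072, SE 0.067, edgeR adjusted p 0.489). TRIM42, 100 kb after CLSTN2, had 0 counts in every library. Around APBA1, PTAR1, 37 kb after it, had 1783 and 1551 counts in shTFE3, against 1478 and 1652 in shControl (log2 fold change 0.022, SE 0.071, edgeR adjusted p 0.867). FAM189A2, 34 kb before APBA1, had 48 and 45 counts in shTFE3, against 54 and 51 in shControl, and did not pass (log2 fold change -0.24, SE 0.210, edgeR adjusted p 0.45).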
